A study of Mus musculus with 6 samples.

Results

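A set of 38 mouse genes of sterol synthesis, fatty acid synthesis and lipoprotein uptake was examined in myoblasts exposed to cyclic stretch. The genes were taken by symbol from a deposited expression table of 22375 rows, and all 38 were found in it. They comprised 5 genes of the SREBP regulatory machinery, 7 enzymes of the mevalonate and isoprenoid steps, 11 enzymes between squalene and cholesterol, 2 lipoprotein receptors with the ubiquitin ligase that degrades such receptors, 3 genes of sterol transport and efflux, and 9 genes of fatty acid synthesis and desaturation.

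The cells were C2C12, a single mouse myoblast line that proliferates as mononucleated cells and can be induced to fuse into myotubes. In the study this line served as a cell model of the mechanical load that mechanical ventilation places on the diaphragm. The CON group (n = 3 libraries) was not stretched, and the 4H group (n = 3 libraries) was stretched cyclically at 15% for 4 h. The cells were seeded on elastic plates coated with poly-lysine. All libraries came from the same line, no genetic change or drug is named for either group, and the labels do not say whether the libraries of a group came from separate cultures.

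Cells sense cholesterol through the SREBP pathway. The SREBP transcription factors are made as membrane proteins of the endoplasmic reticulum. When sterols are scarce, the escort protein SCAP carries them to the Golgi, where proteases release the active factor, and when sterols are plentiful, the INSIG proteins hold SCAP back. Released SREBP-2 mainly drives the sterol synthesis genes, SREBP-1 mainly drives the fatty acid synthesis genes, and the nuclear receptor LXR, which senses oxysterols, drives the efflux transporters.

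Values were deposited as FPKM (fragments per kilobase of transcript, scaled to the mapped fragments of the library). Levels can thus be set side by side between genes of a library. This scaling does not make the totals of the libraries equal, so small differences between libraries are less certain. The values of a library summed to between 395790 and 397260 in CON and between 385146 and 387516 in 4H. No read counts were used, so absolute depth is unknown. The ratios of the smallest values were searched for a common step in each of the 15 pairs of libraries. The densest window of ratios differed from 1 by at most 1.69%, but it held only 11 to 23 of the 562 to 796 low genes of a pair, so relative depth is known only weakly. The 8 myoblast markers summed to between 176 and 180 FPKM in CON and between 263 and 276 FPKM in 4H, and each was above 0 in some library. Of the 7 tested, 5 were higher (71.4%, beside 22.6% of all genes tested) and 1 lower (14.3%, beside 24.1%), by the test given below. The adhesion receptor gene Itga7 rose from 55.9 ± 2.02 to 102.2 ± 4.06 FPKM and the myogenic factor gene Myod1 from 5.13 ± 0.573 to 18.2 ± 0.738 FPKM. The related Myf5 fell from 15.8 ± 0.851 to 9.82 ± 1.13 FPKM (SD, n = 3 each). The adipocyte markers, of a cell type rich in the same enzymes, summed to 2.91 to 3.22 FPKM in CON and 2.42 to 2.77 FPKM in 4H, and 3 of 6 (Plin1, Cidec and Lep) were at 0 in every library. Their sum was mostly Cebpa (means of 2.95 and 2.03 FPKM), while Fabp4, under the floor for testing, went the other way (means of 0.0712 and 0.477 FPKM). The hepatocyte markers summed to at most 0.113 FPKM in any library, with Alb, Ttr and Cyp3a11 at 0 throughout. The fibroblast markers summed to 2.90 to 3.48 FPKM in CON and 5.04 to 5.51 FPKM in 4H, which was mostly 1 gene, Pdgfra (means of 3.15 and 5.08 FPKM), with the other 4 of 5 under the floor for testing. The leukocyte markers summed to 6.82 to 8.55 FPKM in CON and 15.1 to 17.6 FPKM in 4H, which was mostly Cd68 (means of 7.57 and 16.4 FPKM), with the other 3 of 4 under the floor and Ptprc and Adgre1 at 0. The endothelial markers summed to at most 0.261 FPKM. The part of the moving markers in the results was not tested. In such bulk samples, fewer cells of a type and less RNA per cell cannot be told apart.

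The very low density lipoprotein receptor gene Vldlr was the 1 member that passed both thresholds of differential expression, with a mean 10.2 times lower in 4H than in CON. The other members tested stayed under the fold threshold and moved in both directions. Those with the next largest changes were Abcg1, Tm7sf2 and Hsd17b7, all higher in 4H, and the nearby desaturase genes Fads1 and Fads2 went opposite ways. The median log2 fold change of the 37 members tested was -0.00, with 18 above 0 and 19 below it, against a median of -0.01 over all 11593 genes tested.

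The test was limma with a mean-dependent variance trend on log2(FPKM + 0.5). It took in every gene whose mean over the 6 libraries reached 0.5 FPKM, and Benjamini-Hochberg adjustment covered all of these genes. A log2 fold change (log2FC) is the 4H mean minus the CON mean on that scale, and for low genes it is smaller than the change in FPKM. Differential expression followed the study's thresholds, an absolute log2FC of 1 or more together with an adjusted p not above 0.05. A gene is called higher or lower where it passed the adjusted p alone. Of the 37 members tested, 1 was differentially expressed (2.70%), beside 450 of all genes tested (3.88%). At the adjusted p alone 10 members were higher in 4H (27.0%), beside a background of 22.6%, and 9 were lower (24.3%), beside 24.1%. Together 19 were called (51.4%), beside 46.7% of all genes, and in 21 members (56.8%) the CON and 4H libraries did not overlap, beside 56.7%. These shares were near those of the whole table, so the counts by themselves are no result about the set. The remaining member, Abca1, had too low a mean to be tested.

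**Figure D1:**
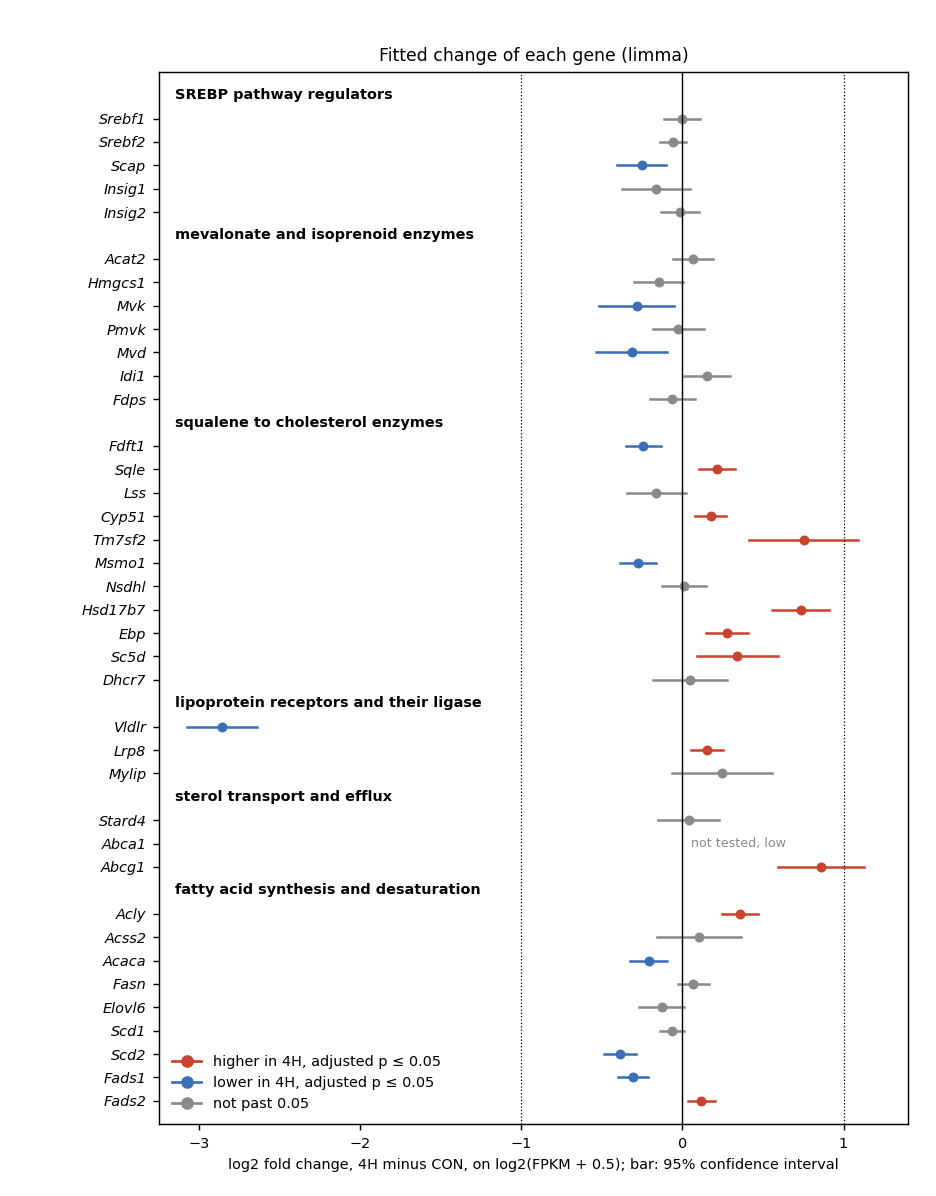
Log2 fold change (4H minus CON, on log2(FPKM + 0.5)) of each of the 37 members tested, ordered by role, as points with 95% confidence intervals from limma, in red where called higher, blue where called lower and grey where not called. Vldlr lies at -2.86, while the other 36 members lie between -0.39 and 0.86.

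Among the regulators, 1 of 5 was called (20.0%, beside 46.7% of all genes), and the median log2FC was -0.06. All 5 had a log2FC below 0, except that Srebf1 (0.03) and Insig2 (0.02) were above it after TPM rescaling and each also changed sign when some single libraries were left out. Scap, the escort of the SREBPs, measured 24.7, 23.3 and 25.3 FPKM in CON replicates 1 to 3 and 20.1, 22.4 and 18.9 FPKM in 4H replicates 1 to 3. All 4H libraries lay below all CON libraries, although 4H replicate 2 came within 1 FPKM of the lowest of them. The log2FC of Scap was -0.25 (SE 0.07, limma adjusted p = 0.0144), and without CON replicate 3 the adjusted p was 0.0526. The gene 5830462I19Rik lies across an exon of Scap on the other strand.

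The transcription factor genes themselves did not pass the test. Srebf2 measured 40.4, 40.8 and 41.9 FPKM in CON and 39.5, 38.3 and 40.4 FPKM in 4H, a log2FC of -0.06 (95% interval -0.14 to 0.02, limma adjusted p = 0.217). Its groups did not overlap, but the gap between them was narrower than the spread within either. Srebf1 measured 13.8, 14.2 and 13.6 FPKM in CON and 13.7, 13.5 and 14.3 FPKM in 4H, with overlapping groups and a log2FC of -0.00 (95% interval -0.11 to 0.11, limma adjusted p = 0.968). The summed FPKM of the 5 regulators was 108.0 ± 0.9002 (SD, n = 3) in CON and 101.1 ± 0.4343 (n = 3) in 4H.

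The anchors of SCAP did not pass it either. Insig1, itself a target of SREBPs in many cells, measured 7.43, 9.30 and 8.55 FPKM in CON and 7.35, 6.94 and 8.03 FPKM in 4H, with a log2FC of -0.17 (95% interval -0.38 to 0.05, limma adjusted p = 0.176). Insig2 measured 20.67, 20.52 and 19.42 FPKM in CON and 21.03, 19.95 and 19.07 FPKM in 4H, with a log2FC of -0.01 (95% interval -0.13 to 0.10, limma adjusted p = 0.850). In both genes the libraries of the groups overlapped.

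**Figure D2:**
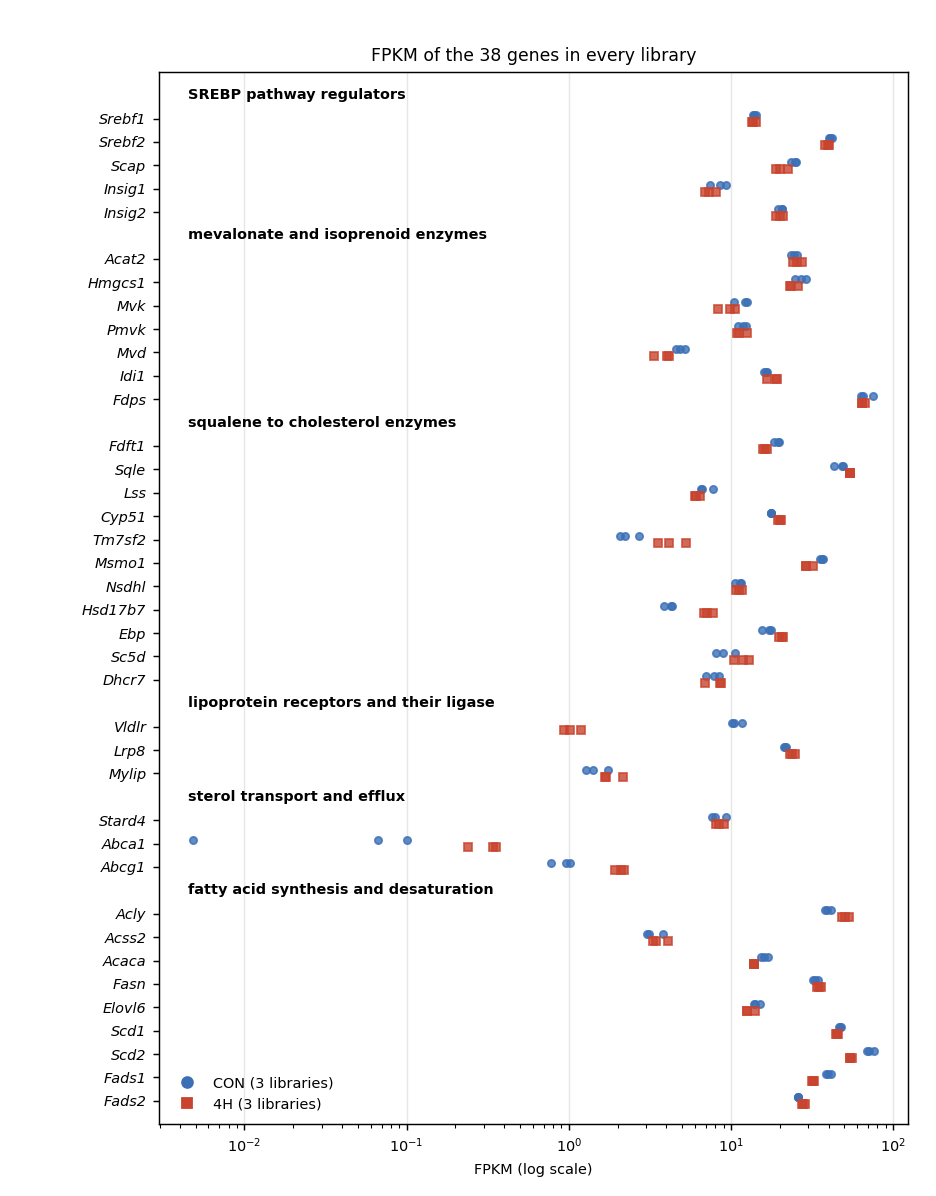
FPKM (log axis) of each of the 38 members in the 3 CON (circles) and the 3 4H libraries (squares), grouped by role. Vldlr is the member whose groups lie farthest apart among those tested, with means of 10.8 and 1.05 FPKM, and Abca1 is the lowest member in both groups.

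The mevalonate enzymes build isoprenoid units from acetyl-CoA. Of 7 members, 2 passed the test, both lower in 4H (28.6%, beside 24.1% of all genes), and the median log2FC was -0.06, with a range from -0.32 to 0.15. Mvd, mevalonate diphosphate decarboxylase, measured 4.828, 5.203 and 4.603 FPKM in CON and 3.34, 4.14 and 4.01 FPKM in 4H. Each 4H library lay below each CON library, and the log2FC was -0.32 (SE 0.10, limma adjusted p = 0.0265). Mvk, mevalonate kinase, measured 12.2, 12.6 and 10.5 FPKM in CON and 9.91, 10.5 and 8.33 FPKM in 4H. Its groups overlapped, at CON replicate 3 and 4H replicate 2, and its log2FC of -0.28 (SE 0.10) passed narrowly, at a limma adjusted p of 0.0474.

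Both calls depended on the settings and on single libraries. With no filter on low genes the adjusted p was 0.0530 for Mvd and 0.0870 for Mvk, and that of Mvk was also 0.0728 without a trend, 0.0636 with array weights and 0.0797 after TPM rescaling. The adjusted p of Mvd was 0.0616 without CON replicate 1, 0.0858 without CON replicate 2 and 0.0719 without 4H replicate 1. The adjusted p of Mvk was 0.128 without CON replicate 1, 0.140 without CON replicate 2, 0.0679 without 4H replicate 1 and 0.131 without 4H replicate 3.

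The other 5 mevalonate genes did not pass the test. They were the thiolase Acat2, the HMG-CoA synthase Hmgcs1, phosphomevalonate kinase Pmvk, the isomerase Idi1 and farnesyl diphosphate synthase Fdps, with log2FC between -0.15 and 0.15. Hmgcs1 (log2FC -0.15, limma adjusted p = 0.103) passed without CON replicate 1 (adjusted p = 0.0372), and Idi1 (log2FC 0.15, limma adjusted p = 0.0730) passed without 4H replicate 1 (adjusted p = 0.0110). Fdps, the most abundant enzyme of this arm, measured 68.0 ± 6.14 FPKM in CON and 64.9 ± 1.55 FPKM in 4H (SD, n = 3 each). Reads of 3 of these genes can be shared with other annotated genes. Of all 75-base stretches of the annotated transcripts, 33.9% recurred elsewhere for Acat2 (in Acat3), 23.5% for Fdps and 16.7% for Idi1, so their levels are less certain. The summed FPKM of the arm was 164 ± 5.49 in CON and 158 ± 2.81 in 4H (SD, n = 3 each).

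Hmgcs1 was the 1 member whose RefSeq promoter window held the sterol regulatory element in the letters searched, TCACNCCAC, and its upstream sequence is shown for that reason. The stretch is chr13:119690101-119690350 (GRCm38, + strand), the 250 bases before its RefSeq start. The capitals mark, in order along the strand, a CCAAT box (read as ATTGG on this strand), another CCAAT box, the sterol regulatory element, a GC box (read as CCGCCC), then one more box of the former kind and one more of the latter.
Hmgcs1: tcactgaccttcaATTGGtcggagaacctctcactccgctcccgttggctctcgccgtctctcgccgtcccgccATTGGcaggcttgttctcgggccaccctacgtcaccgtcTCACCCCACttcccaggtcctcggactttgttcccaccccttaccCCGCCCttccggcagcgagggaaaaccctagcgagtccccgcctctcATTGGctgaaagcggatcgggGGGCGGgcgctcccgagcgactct
This gene, which holds the element, measured 24.8, 28.9 and 27.1 FPKM in CON and 23.2, 23.6 and 25.9 FPKM in 4H, with overlapping groups.

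Of the 10 called sterol synthesis enzymes, 8 belonged to the steps from squalene to cholesterol. Of these 11 members, 6 were higher in 4H (54.5%, beside 22.6% of all genes) and 2 lower (18.2%, beside 24.1%), the median log2FC was 0.17, and in 8 the groups did not overlap (72.7%, beside 56.7%). The largest changes were in Tm7sf2 and Hsd17b7, whose products reduce sterol intermediates at the C14 double bond and at the 3-keto group. Lbr, outside the set, encodes another C14 sterol reductase. It was more abundant than Tm7sf2 and lower in 4H, at 34.0 ± 1.49 FPKM in CON and 29.3 ± 0.850 FPKM in 4H (SD, n = 3 each, log2FC -0.21, limma adjusted p = 0.00554).

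Tm7sf2 (chr19:6062821-6068373, - strand, GRCm38) measured 2.08, 2.73 and 2.21 FPKM in CON and 5.27, 4.14 and 3.55 FPKM in 4H. Every 4H library was above every CON library, but the 4H libraries were spread widely, and the mean rose from 2.34 ± 0.341 to 4.32 ± 0.875 FPKM (SD, n = 3 each). The log2FC was 0.75 (SE 0.15, limma adjusted p = 0.00350). Tm7sf2 shares exon sequence on the same strand with Vps51, a subunit of a vesicle tethering complex, and 8.83% of its 75-base stretches recurred there. Vps51 itself measured 9.87 ± 0.113 FPKM in CON and 10.0 ± 0.885 FPKM in 4H, with a log2FC of 0.02 (limma adjusted p = 0.880).

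Hsd17b7 (chr1:169949535-169969241, - strand, GRCm38) measured 4.26, 4.32 and 3.86 FPKM in CON and 6.85, 7.73 and 7.12 FPKM in 4H. The groups were well separated, with means of 4.15 ± 0.248 and 7.23 ± 0.453 FPKM (SD, n = 3 each), a ratio of 1.74. The log2FC was 0.73 (SE 0.08, limma adjusted p = 0.000125), and no 75-base stretch of the gene recurred in another gene.

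The sequence upstream of Hsd17b7 is shown because this gene was among the members with the largest rises and its RefSeq window held an E-box, the palindrome CACGTG, beside CCAAT and GC boxes. The stretch is chr1:169969242-169969408 (GRCm38, - strand, written along the gene). The capitals mark, in order, a GC box, a CCAAT box (as ATTGG), the E-box, a GC box (as CCGCCC) and a CCAAT box (as ATTGG).
Hsd17b7: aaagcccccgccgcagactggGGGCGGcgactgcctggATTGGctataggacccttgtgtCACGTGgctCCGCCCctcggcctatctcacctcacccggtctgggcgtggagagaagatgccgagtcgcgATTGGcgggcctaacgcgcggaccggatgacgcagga
The E-box and the boxes around it are descriptions of letters and were not tested as binding sites.

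The other 4 rises of this arm were smaller. Squalene epoxidase Sqle, an early oxygen-requiring step, averaged 46.7 ± 3.10 FPKM in CON and 54.3 ± 0.143 FPKM in 4H (SD, n = 3 each, log2FC 0.22, limma adjusted p = 0.00760). Lanosterol demethylase Cyp51 (log2FC 0.17, limma adjusted p = 0.00954) and the sterol isomerase Ebp (log2FC 0.28, limma adjusted p = 0.00491) also had no overlap between groups. Lathosterol oxidase Sc5d (log2FC 0.34, limma adjusted p = 0.0332) did overlap, since CON replicate 3 (10.6 FPKM) exceeded 4H replicate 2 (10.4 FPKM). Leaving out CON replicate 1 or 2, or 4H replicate 1 or 3, ended its call, at adjusted p from 0.0852 to 0.102, as did using no filter (0.0670) or no trend (0.0561). An exon of Cyp51 overlaps Akap9 on the other strand.

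The 2 falls of this arm were of squalene synthase Fdft1, which commits isoprenoids to sterols, and of the C4-methyl oxidase Msmo1. Fdft1 averaged 19.2 ± 0.628 FPKM in CON and 16.2 ± 0.477 FPKM in 4H (SD, n = 3 each, log2FC -0.24, limma adjusted p = 0.00341), and 5.21% of its 75-base stretches recurred in another gene. Msmo1 averaged 36.4 ± 0.833 FPKM in CON and 30.1 ± 1.81 FPKM in 4H (SD, n = 3 each, log2FC -0.28, limma adjusted p = 0.00221). In both, every 4H library was below every CON library.

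The cyclase Lss (log2FC -0.16, limma adjusted p = 0.129), the dehydrogenase Nsdhl (log2FC 0.01, limma adjusted p = 0.892) and the final reductase Dhcr7 (log2FC 0.05, limma adjusted p = 0.732) did not pass. Summed over the 11 enzymes, the level was 178 ± 1.36 FPKM in CON and 190 ± 2.36 FPKM in 4H. With the mevalonate enzymes added, the 18 sterol synthesis enzymes had 6 members higher (33.3%, beside 22.6% of all genes) and 4 lower (22.2%, beside 24.1%), a median log2FC of 0.03, and summed levels of 343 ± 4.84 and 348 ± 2.06 FPKM (SD, n = 3 each). The difference between these summed levels was about as large as the SD of the CON libraries.

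**Figure D3:**
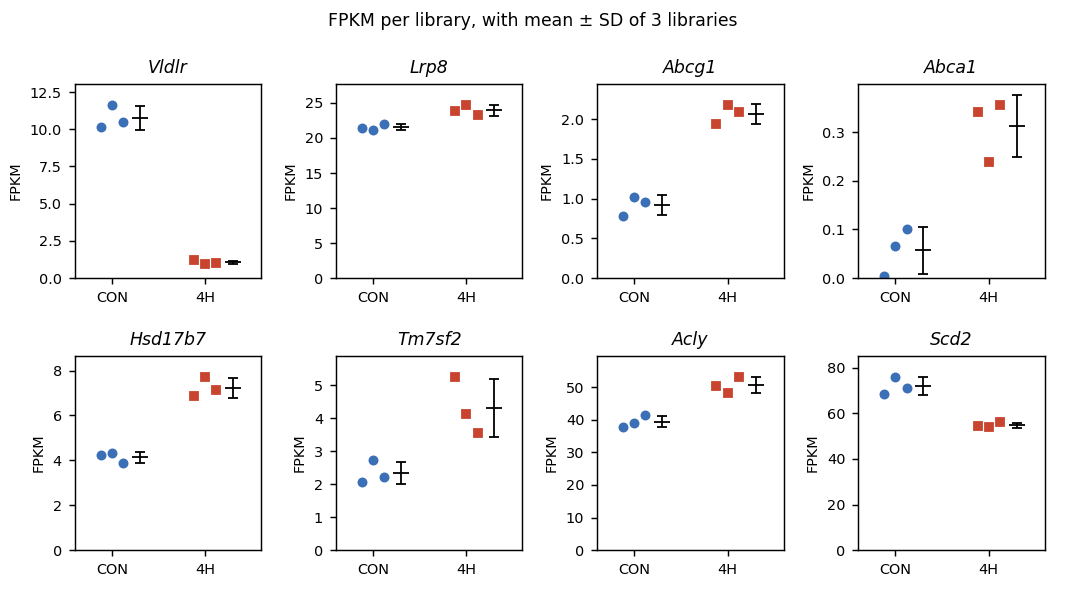
FPKM of 8 members in each library, with 1 panel per gene and every axis starting at 0. Points are the 3 CON and 3 4H libraries, and the bars beside them give the mean ± SD. Every 4H library lies below every CON library for Vldlr and Scd2, and above for Lrp8, Abcg1, Abca1, Hsd17b7, Tm7sf2 and Acly.

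Vldlr encodes a receptor of the low density lipoprotein receptor family that binds triglyceride-rich lipoproteins and, in brain, reelin, and it is well expressed in muscle, heart and adipose tissue. The gene (ENSMUSG00000024924, chr19:27216484-27254231, + strand, GRCm38) measured 10.2, 11.7 and 10.5 FPKM in CON and 1.19, 0.941 and 1.02 FPKM in 4H. No 4H library came near a CON library, and the means were 10.8 ± 0.792 and 1.05 ± 0.128 FPKM (SD, n = 3 each), 10.2 times lower in 4H. The log2FC was -2.86 (SE 0.09, 95% interval -3.08 to -2.64, limma adjusted p = 2.62e-07), the 5th lowest of the 11593 genes tested. Vldlr was differentially expressed under each of the 17 alternatives, and no 75-base stretch of it recurred in another gene.

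The sequence before the first RefSeq start of Vldlr is shown as that of the member with the largest change. These 250 bases, chr19:27216234-27216483 (GRCm38, + strand), held none of the motifs searched and therefore carry no capitals.
Vldlr upstream: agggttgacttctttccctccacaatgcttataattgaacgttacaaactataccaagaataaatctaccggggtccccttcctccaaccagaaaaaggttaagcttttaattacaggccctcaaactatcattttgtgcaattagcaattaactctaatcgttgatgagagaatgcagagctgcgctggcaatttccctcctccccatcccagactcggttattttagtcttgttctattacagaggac
Vldlr has another RefSeq start downstream, and the window of that start held 1 CCAAT box and 1 GC box, which are not shown. It also held an amino acid response element motif, TGATGNAA on either strand, which 4.51% of all genes with a window held. The 30 bases around it, chr19:27216809-27216838 (GRCm38, + strand), lie within 1 annotated exon of the gene. The capitals mark the motif, read on the opposite strand, which begins 336 bases after the first start and ends 193 bases before the second.
Vldlr motif: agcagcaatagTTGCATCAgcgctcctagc
The table holds 1 value per gene, so the transcripts of the starts were not told apart.

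Lrp8, the apolipoprotein E receptor 2 and the closest relative of Vldlr in the set, did not fall. It measured 21.45, 21.11 and 21.96 FPKM in CON and 23.8, 24.8 and 23.3 FPKM in 4H, with every 4H library above every CON library. The log2FC was 0.15 (SE 0.04, limma adjusted p = 0.0189). The call was lost without CON replicate 1 (adjusted p = 0.0506), CON replicate 2 (0.0572) or 4H replicate 2 (0.0665). Mylip, the ligase that marks these receptors for degradation, was at 1.744, 1.279 and 1.403 FPKM in CON and 2.16, 1.68 and 1.69 FPKM in 4H. Its groups overlapped, and its log2FC of 0.25 (95% interval -0.06 to 0.56) did not pass (limma adjusted p = 0.167).

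The balance of the receptors was therefore compared within each library. The log2 ratio of Vldlr to Lrp8 was -1.08, -0.86 and -1.07 in CON and -4.32, -4.72 and -4.51 in 4H, which corresponds to mean ratios of 0.4998 and 0.04372. The groups did not overlap. The difference of -3.51 had a two-sided exact permutation p of 0.1, the smallest that 3 libraries against 3 allow, and 0.15 after Benjamini-Hochberg adjustment over the 6 ratios compared. The summed FPKM of Vldlr, Lrp8 and Mylip was 33.8 ± 0.363 in CON and 26.8 ± 0.753 in 4H (SD, n = 3 each).

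The efflux transporters were low in these cells. Abcg1 (chr17:31057675-31117988, + strand, GRCm38), which passes cholesterol to lipoprotein particles, measured 0.777, 1.02 and 0.957 FPKM in CON and 1.94, 2.18 and 2.09 FPKM in 4H. The groups were apart by more than the spread within either, with means of 0.917 ± 0.125 and 2.07 ± 0.125 FPKM (SD, n = 3 each) and a ratio of 2.26. The log2FC was 0.86 (SE 0.12, limma adjusted p = 0.000480), under the fold threshold on the scale of the test. Abcg1 passed that threshold when 0.1 FPKM was added in place of 0.5, when values were rescaled to TPM and when the ratio of mean FPKM was used, so whether it counts as differentially expressed rests on the scale.

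Abca1 (chr4:53030787-53159895, - strand, GRCm38), which passes cholesterol and phospholipid to apolipoproteins, measured 0.00483, 0.0662 and 0.101 FPKM in CON and 0.340, 0.239 and 0.356 FPKM in 4H. All 4H libraries were above all CON libraries, but the mean of 0.185 FPKM was under the floor of 0.5 FPKM. In the fit without a floor its log2FC was 0.54 (limma adjusted p = 0.00398). Its level was below that of Abcg1 in every library. The direction of the change in their ratio depended on the amount added before taking logs, and the 4H minus CON difference of the log2 ratio was -0.32 with 0.5 FPKM added, 0.33 with 0.1 FPKM added and 2.09 with none. With none added it was 0.84 without CON replicate 1, the library with the lowest Abca1 value. Stard4, a cytosolic sterol carrier, did not pass (log2FC 0.04, limma adjusted p = 0.728).

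Fatty acid synthesis starts from cytosolic acetyl-CoA, and its products are then desaturated and elongated. Of the 9 genes, 2 were higher (22.2%, beside 22.6% of all genes), 3 lower (33.3%, beside 24.1%) and 4 not called, and in 6 the groups did not overlap (66.7%, beside 56.7%). Acly, which makes cytosolic acetyl-CoA from citrate, measured 37.9, 39.0 and 41.3 FPKM in CON and 50.2, 48.2 and 53.2 FPKM in 4H. The lowest 4H library exceeded the highest CON library, and the log2FC was 0.35 (SE 0.05, limma adjusted p = 0.000552).

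The step after it went the other way. Acaca, acetyl-CoA carboxylase 1, averaged 16.1 ± 0.752 FPKM in CON and 13.9 ± 0.0354 FPKM in 4H (SD, n = 3 each, log2FC -0.21, limma adjusted p = 0.00932), although 26.8% of its 75-base stretches recurred in other genes. Fatty acid synthase Fasn (log2FC 0.07, limma adjusted p = 0.220), the acetyl-CoA synthetase Acss2 (log2FC 0.10, limma adjusted p = 0.497) and the elongase Elovl6 (log2FC -0.13, limma adjusted p = 0.118) did not pass. Elovl6 passed without 4H replicate 2 (adjusted p = 0.0441).

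The desaturases comprised nearby genes of chromosome 19. Scd2 (chr19:44293674-44306864, + strand) and Scd1 (chr19:44394455-44407879, - strand) both encode stearoyl-CoA desaturases, lie 87.6 kb apart in GRCm38 and have Scd4 and AC123853.1 between them. Scd2, the most abundant member in CON, measured 68.7, 76.1 and 71.1 FPKM in CON and 54.3, 54.1 and 56.0 FPKM in 4H. Each 4H library was below each CON library, and the log2FC was -0.39 (SE 0.04, limma adjusted p = 0.000165). Scd1 measured 46.3, 47.9 and 46.9 FPKM in CON and 44.9, 44.2 and 45.6 FPKM in 4H. Its groups did not overlap either, but the log2FC was -0.07 (95% interval -0.14 to 0.01, limma adjusted p = 0.134). Little of either gene was shared with other genes, at 3.15% of 75-base stretches for Scd1 and 1.78% for Scd2.

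Fads1 (chr19:10182888-10196877, + strand) and Fads2 (chr19:10062765-10101746, - strand) encode the delta-5 and delta-6 desaturases of polyunsaturated fatty acid synthesis and lie 81.1 kb apart, with AC135670.1 between them. Fads1 measured 38.6, 39.8 and 41.5 FPKM in CON and 32.7, 31.4 and 32.3 FPKM in 4H, a log2FC of -0.31 (SE 0.04, limma adjusted p = 0.000407). Fads2 measured 26.1, 25.8 and 25.8 FPKM in CON and 28.7, 27.6 and 28.0 FPKM in 4H, a log2FC of 0.12 (SE 0.04, limma adjusted p = 0.0294). In both genes the groups did not overlap, with 4H below CON in Fads1 and above it in Fads2. The call of Fads2 was lost with the replicate block (limma adjusted p = 0.0627). It was also lost when any library other than 4H replicate 2 was left out, with adjusted p from 0.0584 to 0.0907, while its log2FC stayed between 0.10 and 0.12 in those fits.

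The balance of each of these pairs was also compared within libraries. The log2 ratio of Scd1 to Scd2 was -0.57, -0.67 and -0.60 in CON and -0.27, -0.29 and -0.30 in 4H, a difference of 0.33. The log2 ratio of Fads1 to Fads2 was 0.57, 0.63 and 0.69 in CON and 0.19, 0.19 and 0.20 in 4H, a difference of -0.43. Neither ratio overlapped between the groups, and both had the smallest two-sided exact permutation p that the design allows, 0.1, or 0.15 after adjustment over the 6 ratios. The log2 ratio of Srebf1 to Srebf2 differed by 0.06 and that of Insig1 to Insig2 by -0.16, both with overlapping groups and a two-sided exact permutation p of 0.2, also 0.2 after adjustment. The 9 genes of this class summed to 291 ± 5.25 FPKM in CON and 276 ± 4.48 FPKM in 4H (SD, n = 3 each).

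**Figure D4:**
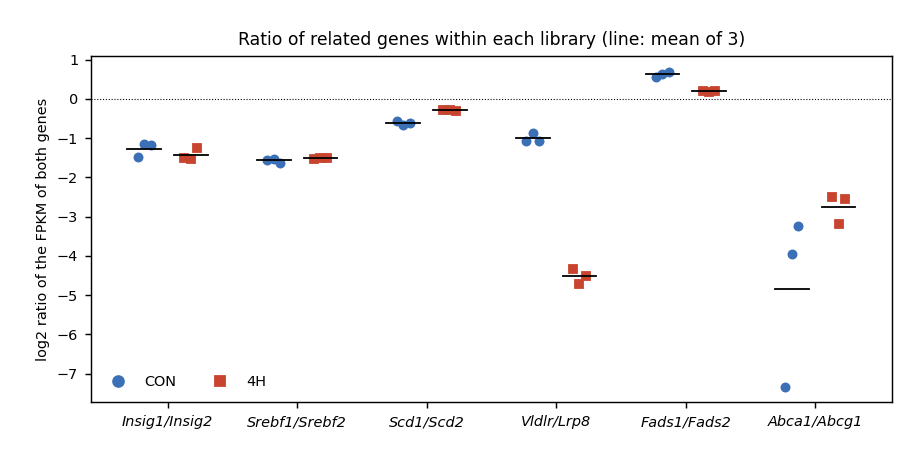
Log2 ratio of the FPKM of both genes of each of 6 pairs, with 1 point for each of the 3 CON and 3 4H libraries and a line at each group mean. The ratio of Vldlr to Lrp8 differs by -3.51 between the group means, those of Scd1 to Scd2 and of Fads1 to Fads2 separate the groups by smaller steps, those of Srebf1 to Srebf2 and of Insig1 to Insig2 overlap, and CON replicate 1 lies far below the others for Abca1 to Abcg1.

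The 18 members that were tested and not called had absolute log2FC of at most 0.25, and their 95% intervals reached at most 0.56 in size. The 37 members tested lay between percentile 8.91 (Abcg1) and percentile 91.3 (Fdps) of the mean levels of all genes tested. Apart from the cases named above, exons of Srebf1, Hmgcs1, Idi1, Fdft1, Lss, Acss2 and Elovl6 overlap a gene on the other strand, and exons of Srebf1, Scd2, Fdps and Tm7sf2 overlap one on the same strand. The libraries kept the strand, but nothing read here says whether the counting used it, and reads of these genes and of their partners may not have been told apart.

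The wider pathway was described with 7 lists of other genes, 167 in all, of which 134 were tested. At the adjusted p, 45 were higher in 4H (33.6%, beside 22.6% of all genes) and 33 lower (24.6%, beside 24.1%), and 5 were differentially expressed (3.73%, beside 3.88% of all genes). Among 23 tested genes of other sterol and isoprenoid functions, 3 were higher (13.04%) and 8 lower (34.8%), and 1 was differentially expressed. This was Stard5, a sterol-binding relative of Stard4, at 11.8, 12.2 and 13.3 FPKM in CON and 3.84, 3.43 and 2.52 FPKM in 4H (log2FC -1.79, limma adjusted p = 1.45e-05). The groups were far apart, but exons of Stard5 overlap Gm45838 on the same strand and Il16 on the other.

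Of 16 genes of SREBP processing and sterol-regulated degradation, 6 were higher (37.5%, beside 22.6% of all genes) and 4 lower (25.0%, beside 24.1%). Paqr3, a Golgi membrane protein reported to bind SCAP and SREBP there, was differentially expressed, at 8.69, 8.66 and 8.52 FPKM in CON and 2.49, 2.70 and 3.74 FPKM in 4H (log2FC -1.41, limma adjusted p = 5.13e-05). Its 4H libraries were all under the CON libraries by more than their own spread, and Bmp2k overlaps it on the other strand. Of 12 tested nuclear receptors and partners, 2 were higher (16.7%, beside 22.6%) and 3 lower (25.0%, beside 24.1%). The largest change was of Rxrb, a retinoid X receptor that pairs with LXR, which fell from 18.5 ± 0.828 to 13.2 ± 0.162 FPKM (SD, n = 3 each, log2FC -0.47, limma adjusted p = 0.000129).

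Of 14 other tested lipoprotein receptors and adaptors, 6 were higher (42.9%, beside 22.6% of all genes) and 3 lower (21.4%, beside 24.1%). Lrp10, a distant relative of Vldlr, had the largest change, from 31.8 ± 0.455 to 52.7 ± 1.27 FPKM (SD, n = 3 each, log2FC 0.72, limma adjusted p = 1.74e-06). An exon of Lrp10 overlaps Gm10366 on the other strand. Of 22 other tested genes of fatty acid synthesis and elongation, 7 were higher and 7 lower (31.8% each, beside 22.6% and 24.1% of all genes). The largest change was of Acsl4, which activates polyunsaturated fatty acids, with means of 21.3 ± 0.941 and 38.4 ± 0.929 FPKM (SD, n = 3 each, log2FC 0.84, limma adjusted p = 2.88e-06). Thus receptors and acyl-chain genes outside the set also moved in both directions, as did the genes of the whole table.

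Of 23 tested genes of glycerolipid synthesis and lipid droplets, 9 were higher (39.1%, beside 22.6% of all genes) and 4 lower (17.4%, beside 24.1%). Lpin3, a phosphatidate phosphatase, measured 6.971, 6.337 and 7.203 FPKM in CON and 15.1, 13.3 and 14.2 FPKM in 4H (log2FC 1.00, limma adjusted p = 1.30e-05), and Mgll, monoglyceride lipase, measured 0.215, 0.353 and 0.351 FPKM in CON and 1.122, 1.011 and 1.461 FPKM in 4H (log2FC 1.07, limma adjusted p = 0.000762). The CON mean of Mgll, 0.306 FPKM, was under the floor of 0.5 FPKM, so this gene was tested only through its 4H libraries and its call is no support for a change of the list. Both sat at the fold threshold, which Lpin3 met under 13 of 17 alternatives and Mgll under 11 of the 15 in which it was tested. An exon of Mgll overlaps Gm26588 on the other strand. Of 24 tested genes of fatty acid oxidation, 12 were higher (50%, beside 22.6% of all genes) and 4 lower (16.7%, beside 24.1%). The median log2FC of this list was 0.16. The largest change there was a fall of Acot2, a mitochondrial acyl-CoA thioesterase, from 22.2 ± 0.635 to 3.54 ± 0.444 FPKM (SD, n = 3 each, log2FC -2.49, limma adjusted p = 2.87e-07), with 21.2% of its 75-base stretches shared with the related Acot1, Acot4 and Acot5.

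**Figure D5:**
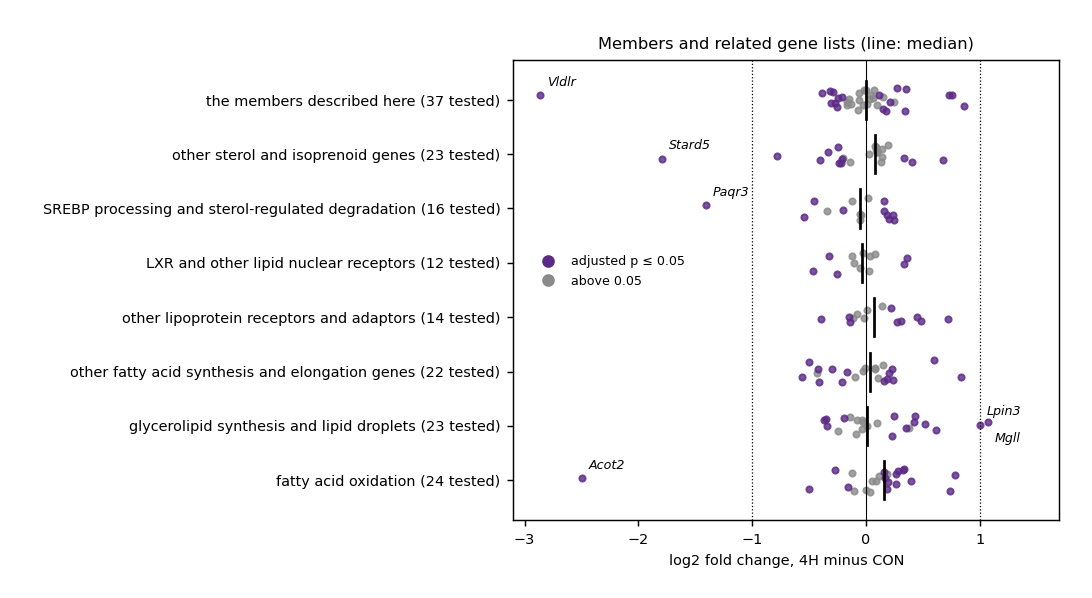
Log2 fold change (4H minus CON, on log2(FPKM + 0.5)) of the 37 members tested and of every tested gene of the 7 lists of related genes, with 1 point per gene, coloured by the adjusted p, and a bar at each median. The medians lie between -0.05 and 0.16, and the points farthest below 0 are Vldlr, Acot2, Stard5 and Paqr3.

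Promoter sequences from RefSeq (GRCm38.p6), each 300 bases from 250 before a start to 50 after it, were available for 30 members in 41 windows, and the others (Abcg1, Fads1, Fdft1, Fdps, Scd1, Scd2, Sqle and Stard4) had no entry. Motifs were searched on both strands. The sterol regulatory element TCACNCCAC was in 1 of the 30 (Hmgcs1), while 1.44% of all genes with a window held it. The E-box CACGTG was in 6 of 30 (Abca1, Dhcr7, Hsd17b7, Insig1, Sc5d and Scap), beside 8.09% of all genes.

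The CCAAT box was in 23 of 30 members, beside 41.1% of all genes, and the GC box GGGCGG in 25 of 30, beside 38.2%. The amino acid response element TGATGNAA was in 3 of 30 (Idi1, Insig2 and Vldlr), beside 4.51%. The LXR element known as DR4, searched only in its exact letters, was in none of the 30 and in 4 of 27025 genes (0.0148%). Abcg1 had no window, so this absence says little about LXR sites of the members. Genes with the E-box included members that rose (Hsd17b7, Sc5d), fell (Scap) and were not called (Dhcr7, Insig1), and of those with the amino acid response element Vldlr fell and the other two were not called. These are descriptions of letters in a fixed window and were not tested.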

How the data were processed

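RNA-seq of C2C12 cells was deposited by the authors as 1 table of FPKM values for 22375 rows, with 3 CON and 3 4H libraries. Per the labels, the libraries kept the strand of the RNA. The submitters' processing notes name the mouse build mm10, while aligner, annotation and counter were not given in the sources used here. Titles 4H1, 4H3 and 4H4 became 4H replicates 1, 2 and 3. No 2 libraries held identical values. P-values measure only the spread between these samples, which may be technical.

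Here, log2(FPKM + 0.5) was fitted with limma 3.58.1 (R 4.3.3; variance trend, robust off) over the 11593 genes whose mean reached 0.5 FPKM, and p was adjusted by the Benjamini-Hochberg method over all of them. The study's methods name DESeq2, which needs counts and was not run. The script was tested on simulated data. Within-library log2 ratios of pairs were compared by two-sided exact permutation tests (SciPy 1.17.1). Coordinates and sequence sharing came from GENCODE M21 (GRCm38), in which all 38 members were found.

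The members and lists were chosen with earlier results of these data known. Library values are given for differentially expressed members, for the 2 members of each class with the largest called change, and for pair members. From each list the differentially expressed genes are named or, with none, the one with the largest called change. Vps51, Lbr, Mylip, the named marker genes and the motif-bearing Hmgcs1 are named outside it, a choice made with their values in view. Alternatives were pseudocounts of 0.1 and 1, no filter, filters at 1 and 5 FPKM, a replicate block, no trend, array weights, TPM rescaling, median-of-ratios and quantile scaling, and leaving out each library.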

Additional observations from a re-analysis of the deposited data

How the results depend on the processing

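Of the 19 called members, 13 kept their call under every alternative in which they were tested, and Scap, Mvk, Mvd, Sc5d, Lrp8 and Fads2 lost it under at least 1. Of the 18 others, Hmgcs1, Idi1 and Elovl6 were called under at least 1. No called member changed direction, but 7 uncalled ones with log2FC near 0 did. After TPM rescaling the log2FC of Srebf1 was 0.0329, of Insig2 0.0222 and of Pmvk 0.00868. Leaving out 1 library gave -0.0272 to 0.0135 for Srebf1, -0.0490 to 0.0201 for Insig2, -0.0830 to 0.0106 for Pmvk, -0.110 to 0.00852 for Fdps, -0.0257 to 0.0427 for Nsdhl, -0.0196 to 0.143 for Dhcr7 and -0.0111 to 0.116 for Stard4. All genes differentially expressed numbered 450, against 245 with a filter at 5 FPKM, which leaves 32 members tested, and 703 after TPM rescaling, where the same floor and pseudocount were kept on values of another scale and 12457 in place of 11593 genes were tested. At the adjusted p, 2617 genes were higher and 2792 lower, against 3140 and 2334 in the TPM fit and 2967 and 2598 with no filter (16576 genes), and the median log2FC of all genes went from -0.01 to 0.03 and 0.02. Members differentially expressed numbered 2 (Vldlr and Abcg1) with a pseudocount of 0.1, after TPM rescaling or with the ratio of mean FPKM. The Abca1 to Abcg1 log2 ratio difference reversed from 2.09 to -0.32 with 0.5 FPKM added. Idi1 was called after TPM rescaling (adjusted p = 0.0349). Causes were not tested.

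Leaving out 1 library gave 449 to 467 differentially expressed genes and 7 to 9 higher and 7 to 10 lower members. With the replicate block, 452 genes were differentially expressed and 4964 in place of 5409 passed the adjusted p, and of the members the call of Fads2 was lost (adjusted p = 0.0627) and no other changed. Deviations of libraries with the same replicate number correlated at -0.126 to 0.025, and 0 of 6 libraries correlated best with their own number. Pairing by replicate number was thus not supported. These numbers differ from the titles for 4H replicates 2 and 3, so neither this check nor the replicate block tested pairing by title. By title, 4H replicate 2 shares its number with CON replicate 3. Their correlation, 0.176, was the highest between a CON and a 4H library. Replicates 1, which also share a title number, correlated at 0.025. FPKM without counts leaves absolute depth unknown, and 3 libraries a group limit the precision.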
